A study of Mus musculus with 12 samples.

Results

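Cytosolic ribosomal protein genes were followed in the pituitary RNA of 12 female C57BL/6J mice aged 2 months. Members were all non-control probes whose gene name is Rpl or Rps plus a number, Rplp0, Rplp1, Rplp2 or Rpsa, while S6 kinase names (Rps6k) were left out. This gave 92 of the 27431 gene names on the array, read by 197 of its 39429 probes on 206 spots. In the early-life group 4 animals had been on a diet deficient in vitamin D during early life, in the peripubertal group 4 had been on it around puberty, and 4 controls received a normal diet. All groups share strain, sex, tissue and age at collection, and the labels call the 4 animals of a group biological replicates. Whole minced pituitaries were used, so every value is an average over all cell types of the gland. Each of the 6 arrays carried 2 animals of 1 diet group, the odd-numbered animal in the green dye Cy3 and the even-numbered animal in the red dye Cy5.

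Ribosomal proteins assemble with ribosomal RNA into a small subunit (Rps genes), which reads the messenger RNA, and a large subunit (Rpl genes), which joins amino acids. Their messenger RNAs are among the most abundant in most cells and usually begin with a C followed by a run of pyrimidines, the terminal oligopyrimidine (TOP) tract, through which mTOR signalling controls their translation. In the pituitary they supply the ribosomes that make the secreted hormones.

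The 197 probes comprised 112 for 46 core large-subunit genes and 69 for 31 core small-subunit genes. A further 9 probes stood for 8 genes with paralog names such as Rpl22l1, 6 probes for 6 pseudogene names such as Rps19-ps4, and 1 for Rps19bp1, which encodes an Rps19-binding protein and no ribosomal subunit. All 92 names were found in the RefSeq gene table, 90 by symbol and 2 by synonym. By the positions in the files, 14 probes lay on another chromosome than the gene they name, among them 11 probes of the core genes Rps27, Rps29, Rpl13, Rpl36 and Rps4x. Such probes can read a copy of the gene at another place, and their values are uncertain for the named gene.

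The tract is shown around annotated starts that were picked from core genes holding it there. It is given for 6 core genes in RefSeq sequence of build GRCm38.p6, as 15 bases before and 15 from the start, with the C and the pyrimidines that follow it in capitals. Rps6, at chr4:86857353-86857382 on the minus strand, encodes the small-subunit protein that S6 kinases phosphorylate. Rplp2 is at chr7:141447636-141447665 (plus strand), Rps10 at chr17:27635230-27635259 (minus), Rps18 at chr17:33955651-33955680 (minus), Rpl38 at chr11:114668565-114668594 (plus) and Rpl28 at chr7:4792950-4792979 (plus).
Rps6: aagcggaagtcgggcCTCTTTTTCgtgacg
Rplp2: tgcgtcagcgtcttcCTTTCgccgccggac
Rps10: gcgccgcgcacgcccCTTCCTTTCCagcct
Rps18: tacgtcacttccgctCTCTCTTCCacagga
Rpl38: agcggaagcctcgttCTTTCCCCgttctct
Rpl28: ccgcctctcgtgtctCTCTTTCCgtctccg
A C at the annotated start followed by at least 4 bases that are each C or T was found on the gene strand in 13 of 66 start entries of core genes (19.7%). Over all start entries it was found in 823 of 32851 (2.51%), and in 0 of 75 entries of mitochondrial ribosomal protein genes. The same pattern of 5 letters was also sought anywhere wholly within the 10 bases before and the 15 bases from the annotated start. It was then found in 36 of 66 core entries (54.5%), against 31 of 75 mitochondrial entries (41.3%) and 10093 of all 32851 entries (30.7%). Of the 77 core genes, 56 had an entry.

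The pituitary identity of the samples was checked on fixed marker genes. All 10 endocrine markers were well above background in all 12 channels, and Gh, which encodes growth hormone, lay at or above percentile 99.972 of all probes. Of 6 ovary markers, 5 were well above background in no channel. Erythroid genes differed between groups: the summed signal of 5 such genes was 14.88 to 16.68 (log2) in early-life animals, 16.89 to 18.33 in peripubertal animals and 15.37 to 17.97 in controls. Their part in the results below was not tested. All control arrays came from 1 slide and all arrays of deficient animals from a different one. In both comparisons with controls the effect of the slide and that of the diet cannot be told apart. In the deposited value table the 8 columns of the deficient groups held the scanned values of the other deficient group, so the table and the scanned files disagree on which animals were early-life and which peripubertal. The labels of the scanned files are followed here. Which labelling is right cannot be told apart, and under the other one the early-life and peripubertal results below exchange places.

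Ribosomal protein probes were among the brightest features on every array. Of the 197 probes, 191 were well above background in at least 4 channels and were kept, and 187 of these were so in all 12 channels. After normalization the median signal of the kept members was 16.02 ± 0.05 (log2, SD, n = 4) in early-life animals, 15.93 ± 0.10 in peripubertal animals and 15.94 ± 0.06 in controls. In each animal this median lay between percentiles 98.1 and 98.6 of the kept probes, and 87.3% to 89.8% of the members were among the brightest 10% of the probes. The medians of the early-life animals, 15.98 to 16.09, overlapped with those of the peripubertal animals, 15.78 to 15.99, and of the controls, 15.88 to 16.01. They rest on 142 or 158 probes in early-life animals, 170 or 174 in peripubertal animals and 181 or 187 in controls. The groups are thus not read on the same probes.

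**Figure D1:**
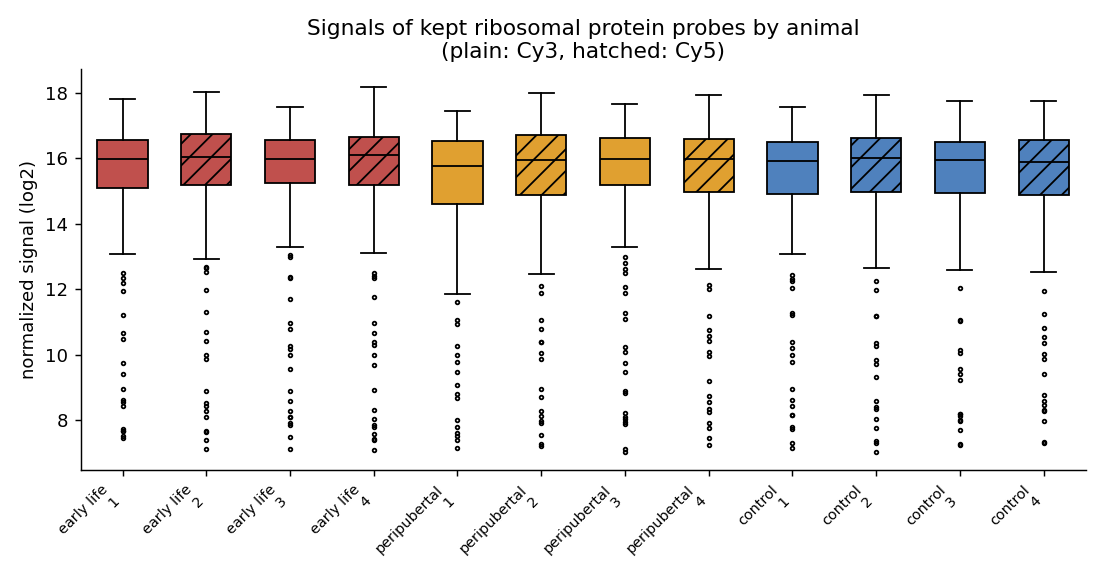
Normalized log2 signals of the kept ribosomal protein probes in each of the 12 animals, with early-life animals at the left, peripubertal animals in the middle and controls at the right. Boxes span the quartiles, lines mark medians, whiskers reach the most distant values within 1.5 box lengths and dots lie beyond. All 12 medians lie between 15.78 and 16.09.

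Among core probes the highest mean signals over the animals belonged to Rpl10 (17.70), Rpl41 (17.68), Rpl37a (17.36) and a pair of Rps27 probes (17.31 and 17.28). Signals of different probes also reflect the probe itself, so they do not order the genes by messenger RNA amount. Among the lowest core means were 7.24 for Rpl6, 7.33 for Rps15a, 7.69 for Rpsa and 8.02 for Rpl21. Each of these genes had another probe with a mean signal of at least 15.71, so the low values do not hold for all probes of a gene. Rpl21 had a further dim probe, at 8.32.

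The dim probes were set against the position of the others. In 11 core genes, 12 probes read at least 5 log2 units below the brightest probe of the same gene. By the mm9 positions in the files, 10 of the 12 lay downstream of the nearest bright probe on the gene strand and 2 lay upstream. For Rpsa, the small-subunit gene also known as the laminin receptor, the dim probe at chr9:120040967-120041026 lay 118 bases from the nearest bright one, and it averaged 7.69 against 16.68 for the brightest. The gap for Rpl6 was 181 bases and for Rpl39, which lines the exit tunnel of the ribosome, 44 bases.

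The P-stalk proteins, which recruit the translation factors to the large subunit, had close signals in the 3 diets. The brightest Rplp0 probe read 17.02, 17.48, 17.19 and 17.28 in early-life animals, 17.15, 17.46, 16.94 and 17.31 in peripubertal animals, and 17.25, 17.49, 16.93 and 17.29 in controls. The groups overlapped, and within every array the Cy5 animal was the higher one. Rplp1 averaged 16.55 ± 0.25 (SD, n = 2), 16.68 ± 0.09 (n = 4) and 16.57 ± 0.16 (n = 4) in the early-life, peripubertal and control groups. Rplp2 averaged 17.02 ± 0.12 (n = 2), 17.06 ± 0.09 (n = 4) and 16.93 ± 0.14 (n = 4). The early-life means of both rest on 1 array, because the image software marked the spot as an outlier on the other.

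The brightest Rps6 probe averaged 16.98 ± 0.09 in early-life animals, 16.96 ± 0.11 in peripubertal animals and 16.82 ± 0.19 in controls (SD, n = 4 each). Rpl5 and Rpl11 bind the small 5S ribosomal RNA and, when free, the p53 regulator Mdm2. The brightest Rpl11 probe averaged 16.82 ± 0.14, 16.86 ± 0.09 and 16.90 ± 0.12 in the same order of groups, and these means differed by less than the spread between animals. The only Rpl5 probe had no early-life value, and it averaged 15.15 ± 0.12 in peripubertal animals and 15.11 ± 0.23 in controls.

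Rps18 and Rpl13a are often used as reference genes. The brightest Rpl13a probe averaged 16.71 ± 0.13 in early-life animals, 16.67 ± 0.11 in peripubertal animals and 16.58 ± 0.07 in controls (SD, n = 4 each). The brighter Rps18 probe averaged 15.93 ± 0.02 (n = 2), 15.69 ± 0.25 (n = 4) and 15.82 ± 0.19 (n = 4) in the same groups. A second Rpl13a probe, averaging 13.68 over all animals, read 13.09, 13.37, 13.82 and 13.24 in early-life animals, between 13.74 and 14.01 in peripubertal animals, and 14.03, 13.59, 13.25 and 14.05 in controls. Its groups overlapped, and it varied more between animals than the bright probe. The brighter of 2 kept probes of Rps4x, the X-linked small-subunit gene, averaged 15.86 ± 0.11, 15.67 ± 0.15 and 15.77 ± 0.09 in the early-life, peripubertal and control groups. Rps4x is among the core genes with a probe on another chromosome.

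Rps27a is made as a fusion with ubiquitin. One of its probes was in no channel well above background, and the brightest averaged 16.20 ± 0.29 (n = 2), 16.64 ± 0.07 (n = 2) and 16.49 ± 0.12 (SD, n = 4) in the early-life, peripubertal and control groups. The brightest Rps27 probe averaged 17.52 ± 0.20, 17.15 ± 0.25 and 17.26 ± 0.25 (n = 4 each), and the brightest Rpl39 probe 15.46 ± 0.22, 15.17 ± 0.27 and 15.28 ± 0.09 (n = 4 each). The groups overlapped on the last, and the early-life mean was the highest for both.

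The paralogs split by detection. Rpl10l and Rpl39l, known from testis, and Rpl3l, known from muscle, were well above background in at most 2 of 12 channels and were not tested. Rpl22l1, Rpl36al, Rpl7l1, Rps27l and Rps4y2 were kept, of which Rps27l had no early-life value and Rpl36al values in controls only. Rps27l averaged 13.36 ± 0.20 in peripubertal animals and 13.46 ± 0.05 in controls (SD, n = 4 each). Rpl7l1 averaged 8.92 ± 0.04, 9.01 ± 0.15 and 9.23 ± 0.20 in the early-life, peripubertal and control groups (n = 4 each). Rpl22l1 averaged 15.29 ± 0.18 (n = 2), 14.59 ± 0.39 (n = 2) and 15.03 ± 0.25 (SD, n = 4) in the early-life, peripubertal and control groups, and Rpl22 averaged 15.50 ± 0.13, 15.32 ± 0.12 and 15.47 ± 0.11 (n = 4 each). All 6 pseudogene names were kept, with a median mean signal of 14.65, and probes of this kind may share target sequence with the parent gene.

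Early-life deficiency was compared with the normal diet on 171 member probes that had values in both groups. No ribosomal protein probe passed an adjusted p of 0.05 (limma, Benjamini-Hochberg over all probes), and over all 23795 probes tested 23 did, which is 0.0967%. The members leaned slightly upward, 107 higher and 64 lower, with a median difference of 0.06 (log2) against 0.01 over all probes. Core small-subunit probes had a median of 0.07 (41 of 62 higher) and core large-subunit probes a median of 0.04 (60 of 99 higher). Probes of like brightness that were no members had a median of 0.04. At an unadjusted p under 0.05 there were 15 members (8.77%), 11 higher and 4 lower, where the background over all probes was 17.2%. Among the other probes of like brightness the share was 12.5%. The 95% interval of a member's difference reached a median of 0.34 to either side. In these bulk samples, fewer cells of a type and less RNA per cell cannot be told apart.

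The member with the smallest p was Rpl36, a large-subunit gene. Its probe read 15.37, 15.50, 15.46 and 15.85 in early-life animals, 16.24 and 16.30 in the 2 peripubertal animals with a value, and 16.11, 16.51, 16.40 and 16.34 in controls. All 4 early-life animals lay below all other animals. The difference from controls was -0.79 ± 0.15 (log2, SE; limma adjusted p = 0.0864), which did not pass, and without early-life animal 3 it was -0.78 with an adjusted p of 0.0462. Without that animal 689 probes passed over all genes, against 23 with all animals. A second Rpl36 probe with the same 3' end gave no such separation: it read 16.89, 16.69, 16.67 and 16.85 in early-life animals, 16.70, 16.82, 16.88 and 16.86 in peripubertal animals, and 16.61, 17.02, 16.94 and 16.84 in controls. Its difference from controls was -0.08 ± 0.14.

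The Rpl36 pair is shown by the first 40 of 60 bases as the array files list them, because the sequences are so alike and the values are not. In mm9 the unseparated probe lies at chr17:56753615-56753674 and the separated one at chr17:56753612-56753674, both on the plus strand. Capitals mark 3 bases that the other probe lacks, and the last 47 bases of the 2 probes are the same.
Rpl36 without separation: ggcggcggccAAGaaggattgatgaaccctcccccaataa
Rpl36 with separation: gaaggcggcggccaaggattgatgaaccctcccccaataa

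The other members of smallest p in this comparison did not pass either, with adjusted p from 0.184 to 0.263. Rps24, a small-subunit gene, read 15.63, 15.62, 15.56 and 15.43 in early-life animals, 15.04, 15.23, 15.42 and 15.24 in peripubertal animals, and 15.19, 15.02, 15.28 and 15.20 in controls. The early-life animals all lay above every other animal, with a difference from controls of 0.39 ± 0.12 (log2, SE; limma adjusted p = 0.184). A second Rps24 probe differed by 0.36 ± 0.15 and another by -0.01 ± 0.22. That one read 15.44, 16.28, 16.01 and 16.51 in early-life animals, against 15.93 and 16.20 in the 2 controls with a value, so the groups overlapped on it. On 1 probe each, Rpl10 had a difference of 0.42 ± 0.14, Rps29 of 0.42 ± 0.17 and Rpl26 of 0.40 ± 0.15. Rps27 differed by 0.35 ± 0.13, Rpl13 by 0.29 ± 0.12 and Rpl31 by 0.29 ± 0.12, also on 1 probe each. Rpl32 differed the other way, by -0.42 ± 0.17. Other tested probes reached down to -0.38 for Rpl10, 0.06 for Rps29, 0.04 for Rps27, 0.01 for Rpl13 and 0.02 for Rpl31. The second Rpl26 probe differed by 0.61.

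Peripubertal deficiency was compared with the normal diet on 185 member probes, and none passed (limma), where 5 of 24248 probes in all did, or 0.0206%. The members were evenly spread, 85 higher and 100 lower, with a median difference of -0.01 against 0.00 over all probes. At an unadjusted p under 0.05 there were 6 members (3.24%), 2 higher and 4 lower in peripubertal animals, against a background of 5%. Among other probes of like brightness the share was 3.01%. All 4 paralog probes tested were lower, with a median of -0.27, and 5 of 6 pseudogene names were lower, with a median of -0.15. None of them reached an unadjusted p under 0.05 (limma). Their 95% intervals reached a median of 0.50 to either side for the paralogs and 0.33 for the pseudogene names.

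Rpl3 contributes to the peptidyl transferase centre of the large subunit and had the smallest p. One probe read 15.79 and 15.92 in the 2 peripubertal animals with a value, 16.13, 16.17, 16.49 and 16.42 in early-life animals, and 16.56, 16.51, 16.64 and 16.51 in controls. The 3 groups did not overlap on this probe, and the difference between the peripubertal and control groups was -0.70 ± 0.16 (log2, SE; limma adjusted p = 0.462). A second Rpl3 probe ran the opposite way, with 16.72, 16.55, 16.41 and 16.37 in peripubertal animals and 16.40, 16.57, 15.80 and 16.19 in controls, a difference of 0.27 ± 0.19. Rpl27 differed by -0.55 ± 0.18, Rps3 by -0.51 ± 0.21 and Rps3a by -0.40 ± 0.14 on 1 of their probes each, with limma adjusted p of 0.79 to 0.99. Rpl36a was also lower on 1 probe, by -0.37 ± 0.16. Higher values were read for Rps29 on 2 probes (0.31 ± 0.14 and 0.36 ± 0.17). Values were also higher on 1 Rpl10 probe (0.31 ± 0.14) and 1 Rpl38 probe (0.30 ± 0.14), and none of these passed. The other Rpl38 probe differed by -0.11, and the other Rpl10 probes by 0.20 and -0.13.

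Early-life and peripubertal animals were hybridised on the same slide, and 167 member probes had values in both. None passed, against 94 of 23618 probes in all, or 0.398% (limma). That background moved with single animals: 1329 probes passed without early-life animal 3, 341 without control animal 3 and 8 to 33 without any other 1 animal, and no member passed in any of these. Early-life values were higher for 108 members and lower for 59, with a median difference of 0.07 against 0.02 over all probes. At an unadjusted p under 0.05 there were 21 members (12.6%), 18 higher and 3 lower in early-life animals, where the background was 20.2%. Other probes of like brightness had a share of 19.6%. All 6 pseudogene names were higher, with a median of 0.23, while core large-subunit probes had a median of 0.04 and core small-subunit probes of 0.12. The 95% intervals of the pseudogene names reached a median of 0.38 to either side.

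Rps19, mutated in the human disorder Diamond-Blackfan anaemia, read 14.99, 15.08, 14.93 and 14.94 in early-life animals, against 13.97, 14.47, 14.80 and 14.58 in peripubertal animals. The groups did not overlap, although the first peripubertal animal was far below the others, and the difference was 0.53 ± 0.18 (limma adjusted p = 0.159). On its dimmer probe Rps18 read 14.80, 15.36, 14.90 and 14.97 in early-life animals, against 14.01, 14.74, 14.47 and 14.48 in peripubertal animals, a difference of 0.58 ± 0.19 (limma adjusted p = 0.144). Rps3 differed by 0.83 ± 0.26 and Rps3a by 0.57 ± 0.14 on 1 probe each. Rpl36a (0.63 ± 0.19), Rpl34-ps1 (0.55 ± 0.16) and Rpl13 (0.42 ± 0.15) were higher in early-life animals too, on 1 probe each. Other tested probes reached down to 0.39 for Rpl36a and 0.06 for Rpl13. Rpl36 was lower, by -0.73 ± 0.18 (limma adjusted p = 0.103), and 1 Rpl3 probe was lower by -0.66 ± 0.23 while the other was higher by 0.45 ± 0.16. A second Rps3a probe, the one with the smallest SD of all core probes measured in all animals (0.07), differed by 0.09 ± 0.10.

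**Figure D2:**
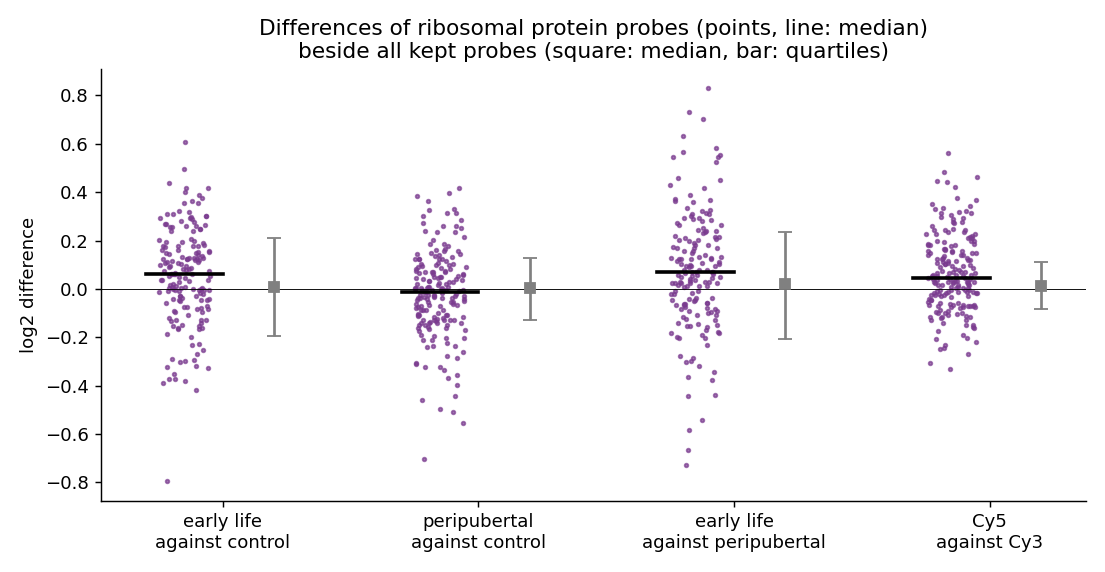
Log2 differences of the ribosomal protein probes (points, with a line at the median) in the 3 diet comparisons and between the dyes, beside the median and quartiles over all kept probes (square and bar). Member medians are 0.06, -0.01, 0.07 and 0.05 from left to right, and no point passed an adjusted p of 0.05.

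Both comparisons with the peripubertal group draw on the first peripubertal animal, whose members were low. The median deviation of the members from their own means over all animals was 0.07, 0.12, 0.01 and 0.06 in early-life animals, -0.11, 0.04, 0.03 and 0.05 in peripubertal animals, and -0.02, 0.03, -0.00 and -0.02 in controls. Averages were 0.07 ± 0.04, 0.00 ± 0.08 and -0.00 ± 0.02 (SD, n = 4). Each of these medians covers the probes with a value in that animal, which differ between arrays. On the 109 members with values from all 12 animals, the peripubertal medians were -0.09, 0.04, -0.02 and 0.05. On the same members early-life animal 3 was at -0.02 and control animal 1 at -0.06. Without the first peripubertal animal the median difference between early-life and peripubertal animals was 0.05, and that between peripubertal animals and controls was 0.02.

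The members' direction also depended on how arrays were put on a common scale. With each channel centred on its median, the members' median difference between early-life animals and controls was 0.44, against 0.13 over all probes. It was 0.16 against 0.12 between peripubertal animals and controls, and 0.32 against 0.03 between early-life and peripubertal animals. No member passed under that scaling in any of the diet comparisons. The slightly negative median of the peripubertal comparison with controls thus turned positive there, while both early-life medians stayed positive. With outlier spots removed before the scaling instead of after it, an order chosen after seeing the data, 12 members passed between early-life animals and controls, where 16.6% of all probes passed and the median of all probes moved to 0.29. Rpl36 was the 1 of these that was lower (-0.69). Those that were higher included Rpl17, Rpl35a, Rpl36a (2 probes), Rpl15, Rps24, Rpl26, Rpl14, Rpl13 and Rpl29, and the members' median of 0.17 lay below that of all probes. Between early-life and peripubertal animals 1 member passed under it, Rps3 (1.14), where 2.64% of all probes passed.

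Probes with nearly the same sequence were compared for how far readings under 1 gene name can differ. Whether both probes of a pair read the same transcript was not tested. In 15 genes, 17 pairs of kept probes overlapped by at least 45 bases with at most 6 unlike bases. Their mean signals differed by a median of 0.46 (log2) and by up to 1.95. For the 14 pairs with early-life and control values, the difference between the groups varied by a median of 0.33 between the 2 probes, and 5 pairs had opposite signs. The 14 pairs of early-life and peripubertal values varied by 0.20, with 4 opposite, and the 17 pairs of peripubertal and control values by 0.11, with 9 opposite. 

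Rpl7a gives the widest gap in signal, with sequences at the same mm9 position, chr2:26768759-26768818 on the plus strand, which is why they are shown. Capitals mark the 6 positions at which the 2 probes differ. The brighter one averaged 16.38 and the dimmer one 14.44, and the dimmer one held nearly the same level in every animal, between 14.23 and 14.63.
Rpl7a brighter: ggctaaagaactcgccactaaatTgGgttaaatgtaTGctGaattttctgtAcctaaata
Rpl7a dimmer: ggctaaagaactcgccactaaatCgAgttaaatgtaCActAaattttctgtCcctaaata

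Rpl10, a late-joining large-subunit protein, gives the widest gap in a difference between groups. One probe at chrX:71518414-71518473 read 17.18, 17.30, 17.03 and 17.49 in early-life animals, 17.04, 17.34, 16.96 and 17.24 in peripubertal animals, and 16.48, 16.99, 16.93 and 16.91 in controls. It differed between early-life animals and controls by 0.42 ± 0.14. Its neighbour at chrX:71518408-71518465 read 16.06 and 16.98 in the 2 early-life animals with a value, and 16.41, 17.05, 17.14 and 17.02 in controls, a difference of -0.38 ± 0.27. The groups overlapped on the second probe. Within 30 shared positions the 2 sequences differ at the 2 in capitals.
Rpl10 first: atcgttcaataataaaatctcgcatcaaGT
Rpl10 neighbour: atcgttcaataataaaatctcgcatcaaAA

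Over all genes with several tested probes, probes of 1 gene had opposite signs in 23 of 49 genes between early-life animals and controls, in 37 of 56 between peripubertal animals and controls, and in 32 of 48 between early-life and peripubertal animals. The median gap between the extreme probes of a gene was 0.26, 0.20 and 0.34 in those comparisons. The widest such gaps were 1.11 for Rpl3, 1.00 for Rpl17, 0.99 for Rps27a, 0.85 for Rps3 (all between early-life and peripubertal animals) and 0.80 for Rpl10 (early life against control). With the probes of each gene averaged, no member gene passed between early-life animals and controls (0.285% of all genes did) or between early-life and peripubertal animals (0.504%).

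Before normalization the members were brighter in the red channel. Their median raw signal was 361 ± 18.3 times the median of all spots in the 6 Cy5 channels, against 242 ± 21.5 times in the 6 Cy3 channels (SD, n = 6 each), and the ranges did not overlap. With only the centre of each array's log ratio removed, a setting chosen after seeing the data, the median Cy5 minus Cy3 difference of the members was 0.67 (log2), against 0.22 over all probes, and 159 of 191 members passed, all higher in Cy5, where 19.1% of all probes passed. After loess, which removes a dye bias that changes with brightness, 0 of 191 members passed and 0.0325% of all probes did (limma). The median then was 0.05 against 0.01, with 121 members higher and 70 lower in Cy5. This direction flipped with all channels scaled to the same quantiles, where the median was -0.0019 and 94 of 191 members were higher, and without peripubertal animal 1 the median was 0.0272. Each dye holds other animals, 1 of each per array, so the dye difference is an average over 6 pairs of animals.

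A dye difference remained at the brightest members after loess. The 15 members with a mean signal of 17 to 18 were all higher in Cy5, with a median of 0.27, and so were 91.3% of the 46 other probes in that range, with a median of 0.27. The 78 members between 16 and 17 had a median of 0.07, and the 49 between 15 and 16 a median of 0.00. At an unadjusted p under 0.05 there were 43 members (22.5%), 37 higher and 6 lower in Cy5, against a background of 9.87%. Among 609 other probes with a mean signal of 14.99 to 16.58 the share was 11.2%, with 34 higher and 34 lower. That range leaves out the brightest members. Across the 191 members the dye difference had a Pearson correlation of 0.22 with mean signal and of -0.12 with the G and C content of the probe, given as a description of probes that share arrays.

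The large-subunit gene Rpl10 and the small-subunit gene Rps29 led this comparison. Their probes are shown because they gave the widest and the most certain dye difference. The dyes were built in as labelled CTP, per the labels, and the part of base composition was not tested. Rpl10 lies at chrX:71518307-71518366 (plus strand) and Rps29 at chr2:172335021-172335079 (minus strand), which is not the chromosome of the Rps29 gene.
Rpl10 brightest: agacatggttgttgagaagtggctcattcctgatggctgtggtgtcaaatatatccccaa
Rps29: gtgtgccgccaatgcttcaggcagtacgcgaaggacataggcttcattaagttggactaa
This Rpl10 probe read 18.03, 18.19, 18.01, 17.92, 17.95 and 17.77 in the Cy5 animals, against 17.31, 17.28, 17.13, 17.46, 17.56 and 17.76 in the Cy3 animals on the same arrays. The Cy5 animal was higher on every array, by very little on the last, and the difference was 0.56 ± 0.11 (log2, SE; limma adjusted p = 0.129). Without control animal 4 it was 0.65 and passed, with an adjusted p of 0.0436, where 20 probes passed over all genes, against 8 with all animals. Rps29 read 16.79, 16.83, 16.99, 17.14, 16.92 and 16.87 in the Cy5 animals, against 16.49, 16.58, 16.70, 16.67, 16.10 and 16.34 in the Cy3 animals. Its difference was 0.45 ± 0.08 (limma adjusted p = 0.0997). Rps10 (0.46 ± 0.11), Rpl38 (0.42 ± 0.08), Rps24 (0.38 ± 0.08), Rps14 (0.37 ± 0.09), Rpl23 (0.35 ± 0.06), Rplp0 (0.31 ± 0.08) and Rpl18-ps1 (0.30 ± 0.07) followed, all higher in Cy5 and none past the threshold.

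**Figure D3:**
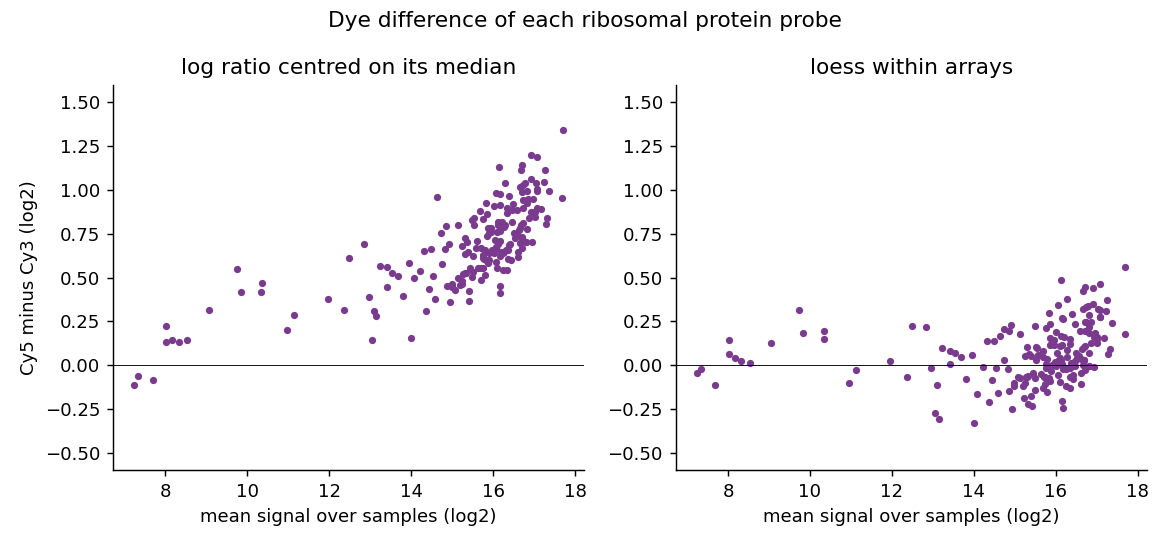
Cy5 minus Cy3 difference (log2) of each ribosomal protein probe against its mean signal over the animals (log2), with the log ratio only centred at the left and with loess at the right. At the left the members' median is 0.67 and rises with signal, and at the right it is 0.05.

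By diet group, the median within-array dye difference of the members was 0.09 and 0.06 on the early-life arrays, 0.15 and 0.01 on the peripubertal arrays, and 0.04 and 0.00 on the control arrays. Medians over all probes lay between 0.00 and 0.02 on these arrays. The array with the first peripubertal animal had the largest value, and that animal was its Cy3 member.

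The spread of members around their group means was close to that of other probes of like brightness. The median SD of a member within groups was 0.17 (log2), against 0.16 for 609 other probes with a mean signal between 14.99 and 16.58, and 0.22 for all kept probes. In the 109 members with values from all 12 animals, array means varied around their group mean with a median SD of 0.12, and single animals within an array, once the mean dye difference was removed, also with 0.12. Array means varied 1.63 times as much as the spread within arrays alone would give, against 1.55 times for the other probes of like brightness and 1.42 times for all kept probes. The correlation between animals on 1 array was 0.31 over all probes.

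Among core probes, Rpl9, a large-subunit gene, depended most on the array. It read 16.97 and 16.94 on 1 early-life array and 16.07 and 16.29 on the other, 16.97 and 16.97 on 1 peripubertal array and 16.56 and 16.58 on the other, and 16.67 and 16.73 against 16.81 and 16.72 on the control arrays. Animals on 1 array lay close together, while the early-life and the peripubertal arrays did not overlap within their own diet. Its array means varied 6.61 times as much as the spread within arrays gives, followed by Rpl27 (5.95), Rpl4 (4.60), a dim Rpl39 probe (4.17) and the dimmer Rpl7a probe (3.69). The widest spread overall was on a dim Rps6 probe, with 12.20, 12.68, 13.81 and 13.91 in early-life animals, 13.01, 12.47, 12.80 and 12.97 in peripubertal animals, and 13.59, 13.03, 13.48 and 13.14 in controls. There the groups overlapped. One early-life array lay above all other animals, and the other early-life array held the lowest value.

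Outlier marks fell unevenly on the arrays. The image software marked 49 and 38 of the 206 member spots on the early-life arrays (23.8% and 18.4%), 24 and 20 on the peripubertal arrays (11.7% and 9.71%), and 10 and 4 on the control arrays (4.85% and 1.94%). Over all non-control spots the shares were 7.34% and 6.54%, 5.08% and 3.85%, and 1.90% and 1.68% in the same order. Among other spots in the brightest 10% of the Cy5 channel, 27.5% and 28.8% were marked on the early-life arrays, 20.8% and 14.3% on the peripubertal arrays, and 7.85% and 7.39% on the control arrays. Marked spots were left out, so 129 of the 191 kept members had values from all 4 early-life animals, 159 from all 4 peripubertal animals and 177 from all 4 controls, and 20 had no early-life value. With marked spots kept, the members' median difference between early-life animals and controls was 0.03, none of 191 passed and 0.0609% of all probes did, and the median between early-life and peripubertal animals was 0.05.

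**Figure D4:**
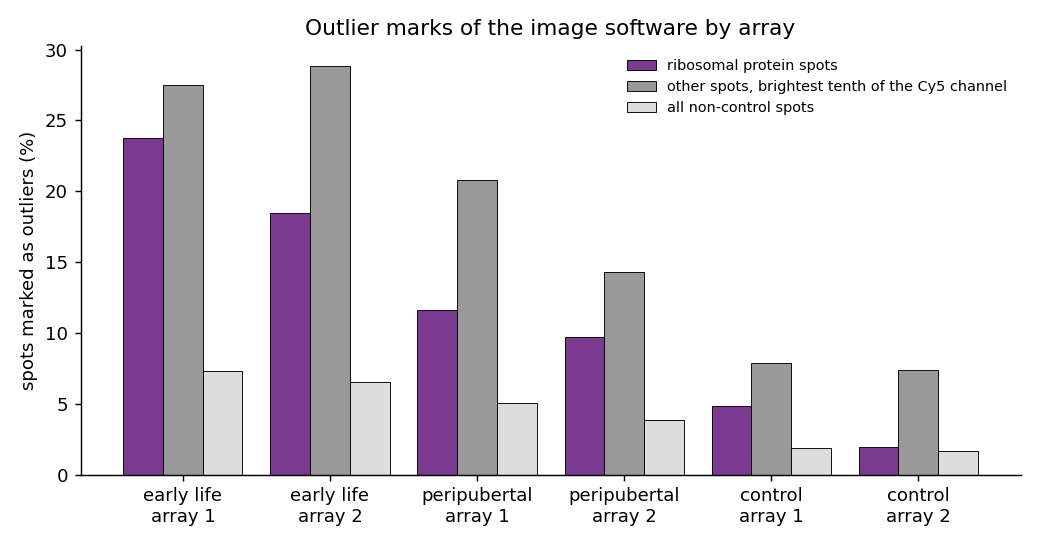
Share of spots marked as outliers by the image software on each array, in percent, for ribosomal protein spots, for other spots in the brightest 10% of the Cy5 channel and for all non-control spots. Early-life arrays have the highest share of marked ribosomal protein spots (23.8% and 18.4%) and control arrays the lowest (4.85% and 1.94%).

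Related genes of translation were read from 5 lists, and in the 3 diet comparisons no probe of these lists passed (limma). For other genes with TOP messenger RNAs, such as elongation factors, the median difference between early-life animals and controls was 0.05 with 18 of 29 probes higher. The RNA-binding protein gene Hnrnpa1 differed by 0.72 ± 0.19 (adjusted p = 0.133) and Pabpc1, the poly(A)-binding protein gene, by -0.53 ± 0.19 (adjusted p = 0.23). Between early-life and peripubertal animals the TOP list had a median of 0.05 and between peripubertal animals and controls of -0.02. Ribosome biogenesis genes had a median of -0.18 with 24 of 30 probes lower, against 0.01 over all probes. The nucleolar protein Nop56 differed by -0.76 ± 0.18 (adjusted p = 0.142) and 1 probe of Ubtf, a transcription factor of RNA polymerase I, by -0.70 ± 0.18 (adjusted p = 0.134). A second Ubtf probe ran the other way in early-life animals: it differed by 0.83 ± 0.22 from peripubertal animals (adjusted p = 0.107), while peripubertal animals differed from controls by -0.54 ± 0.22 on it. Between peripubertal animals and controls the biogenesis median was -0.06 with 21 of 32 lower, and between early-life and peripubertal animals -0.10 with 20 of 29 lower.

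Genes named as initiation factors had medians of 0.06 (38 of 66 higher) in early-life animals against controls and -0.02 in both other comparisons. In both early-life comparisons the smallest p among them was on 1 probe of Eif4e, the gene of the cap-binding protein. Early-life animals differed on it by -0.71 ± 0.21 from controls (limma adjusted p = 0.165). From peripubertal animals they differed by -0.88 ± 0.21 (limma adjusted p = 0.0965). S6 kinases and mTOR pathway genes had a median of -0.14 with 21 of 31 lower in early-life animals against controls, and of -0.00 and -0.02 in the other comparisons. Among them, Rps6kl1 differed by 0.62 ± 0.20 (adjusted p = 0.181) and Rps6ka1, a p90 S6 kinase gene, by -0.57 ± 0.21 (adjusted p = 0.23) in early-life animals against controls. Mitochondrial ribosomal proteins, encoded by separate genes, had medians of 0.01, -0.01 and 0.03 in the 3 comparisons, each near the background.

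The members did not share a strong common profile. Over the 12 animals, each of 103 core probes was set against the mean of the others, and the median Pearson correlation was 0.30, with 28.2% of probes above 0.5. The probes outside the membership whose 12 values were most like that mean were an unnamed probe (r = 0.90), Ints7 (0.89), 9330184L24Rik (0.88), Rpp21 (0.88), 2900056M20Rik (0.88), Zfp112 (0.87), Gm5561 (0.87), Gm15501 (0.87), Sec24a (0.87) and Fam83f (0.87). These correlations describe 12 samples that share arrays and dyes.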

How the data were processed

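Pituitary RNA of 12 mice (3 diet groups of 4) was measured on 6 Agilent 2-colour arrays. Per the file headers, the deposited scanner files give spot intensity and background intensity from Agilent Feature Extraction 11.0.1.1, with probe positions of build mm9. The authors' deposited value table gives log2 values with a step not described in the labels, and it served as an alternative only: its 8 columns of the deficient groups equal scanned channels of the other deficient group within 1e-06, and its 4 control columns match no channel, so how those were made stays unknown. Every column of the table has a median of 0. Array precision is limited by the number of arrays, not by read depth.

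Intensities were background-corrected by normexp (offset 50), dye-normalized by loess within arrays and scaled between arrays by Aquantile, after which spots marked as outliers were left out and spots of a probe averaged to log2 values. Control features (1377 of 44397) were dropped. Probes well above background in at least 4 of 12 channels were kept (24647 of 39429), of which 5542 lack an array. Diet and dye were fitted as fixed terms with limma 3.58.1 in R 4.3.3 and array as a random block (correlation 0.31), with Benjamini-Hochberg adjustment over all probes at 0.05. The fit was tested on simulated data.

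Members, lists and named probes were chosen with earlier results of these data known. Named were fixed genes of known role, the 10 member probes of smallest p per comparison and the extremes of signal, spread, array dependence and probe gaps, and a few of these are not reported here. Alternatives changed the background, scaling, filter, outlier handling, probe summary, block and single animals.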

Additional observations from a re-analysis of the deposited data

Results flagged for a closer look

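The median deviation of members in peripubertal animals had 1 animal far from the others, at -0.1139, where the other 3 lay close together between 0.03 and 0.05. On members with values from all 12 animals the peripubertal values were -0.09, 0.04, -0.02 and 0.05, so the other 3 were less close there. In the early-life group, Rps3a was 16.7569 in the first animal, above the others. In controls, Rpl10 was 16.4791 in the first animal and Rpl31 16.8298 in the third animal, each apart from the other 3. All 4 came from 52 groups of 4 values examined, and chance marks about 1 group in 20 by this measure.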

How the results depend on the processing

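Of 214 repeats of the member counts and median differences under alternative settings, 202 stayed within 1.5 times the count or within the spread between animals (0.05 on the log2 scale). That allowance is about as large as the medians, so a change of sign can count as unmoved. The dye median of -0.0019 with all channels scaled to the same quantiles was 1 such case. Leaving out an animal of the group not compared cannot move a median. The count of 202 therefore does not show that the medians are stable. With each channel centred on its median, the medians were 0.4417 (early life against control), 0.1591 (peripubertal against control) and 0.3158 (early life against peripubertal). With outlier spots removed before the scaling, an order chosen after seeing the data, 12 and 1 members passed between early-life animals and controls and between early-life and peripubertal animals, with medians of 0.1669 and 0.1323, while the median of all probes moved to 0.29 and 0.17 and 16.6% and 2.64% of all probes passed. Without loess, also chosen after seeing the data, 159 members passed between the dyes with a median of 0.6703. In the deposited value table under its own labels, the median between early-life and peripubertal animals was -0.2455.

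Leaving out 1 animal at a time gave 0 to 1 member past the threshold between early-life animals and controls (Rpl36 without early-life animal 3, where 689 probes passed over all genes against 23 with all animals) and 0 to 1 between the dyes (Rpl10 without control animal 4, where 20 passed against 8). Over all genes the other omissions gave 6 to 366 probes between early-life animals and controls, the highest without control animal 3, 0 to 1 against 5 between peripubertal animals and controls, and 8 to 1329 against 94 between early-life and peripubertal animals. Same-numbered animals of different groups had r from -0.18 to 0.12 over 12 pairs, with 3 above 0.1 and a median of 0.04. Animals of other numbers in the same dye also had a median of 0.04. Same-numbered animals always share a dye and each group holds only 4 animals, so this cannot decide whether the numbers pair them. With the replicate block no member passed in any diet comparison, and the medians were 0.06, -0.01 and 0.07.

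Of 968 repeats on single named probes, 12 reversed. The value table gave Rpl36 0.569, Rps3a -0.6575, Rpl34-ps1 -0.4115, Rps3 -0.7339, Rps18 -0.6586, Rpl36a -0.0448, Rps19 -0.5659, Rpl13 -0.6315 and the 2 Rpl3 probes 0.2578 and -0.5737 between early-life and peripubertal animals, whose columns it exchanges. With the mean of the probes of a gene, Rpl10 was -0.0212 (early life against control) and Rpl3 -0.2454 (early life against peripubertal). With 2 arrays per group small member differences are below what the 95% intervals resolve.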
